A study of Homo sapiens with 14 samples.

Results

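The mesendoderm transcription factors analysed here are 7 genes chosen by name, EOMES, TBXT, MIXL1, GSC, LHX1, OTX2 and MESP1. The bulk RNA-seq tables list 63677 gene IDs, and 6 of the 7 factors were matched among them. The gene ID of LHX1 in the annotation used here had no match in those tables, so LHX1 in bulk RNA was not analysed here. The gastruloid table lists 17493 genes, 5 of the 7 factors among them, and EOMES and GSC were not analysed in the nuclei.

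All samples derive from H9, an established line of human embryonic stem cells (hESC) grown on Matrigel. The 12 bulk RNA-seq libraries fall into 5 groups. Undifferentiated hESC are represented by 2 libraries, whose labels do not name the repressor dCAS9-KRAB. Definitive endoderm was obtained with Activin A at 100 ng/ml for 3 days and the GSK-3 inhibitor CHIR-99021 at 5 μM on the first day and 0.5 μM on the next. Of the endoderm libraries, 3 are from cells that express dCAS9-KRAB without an sgRNA (control) and 3 from cells that also carry an sgRNA against the LTR5 endogenous retroviral promoters, so that dCAS9-KRAB silences the sites it is guided to (CRISPRi). Foregut libraries, made after 3 more days of culture, number 2 for the control and 2 for CRISPRi. The status labels of the foregut libraries name other states, hESC for the controls and endoderm without sgRNA for the CRISPRi libraries, so the foregut groups rest on the titles alone. Gastruloids are aggregates that elongate and form parts of the body axis. Here they were started from 800 cells per well, CHIR-99021 was at 3 μM and a Rock inhibitor at 10 μM, and nuclei of 1 preparation were profiled at 72 h for RNA and for accessible chromatin.

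These factors act where epiblast cells leave pluripotency through the primitive streak. Nodal signals, which Activin mimics through the same receptors and SMAD proteins, and WNT signals, which CHIR-99021 mimics, turn on the T-box factors EOMES and TBXT and the homeobox factors MIXL1 and GSC. EOMES and MIXL1 are needed for endoderm, TBXT for the notochord and posterior mesoderm, GSC and LHX1 mark the organizer and the anterior endoderm and axial mesoderm that come from it, OTX2 is used in the epiblast and again in anterior tissues, and MESP1 marks the earliest mesoderm, including heart progenitors.

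Marker genes were read next. The summed level of 6 hESC markers was 1268 and 1713 counts-per-million (CPM) in the hESC libraries, 1135, 1035 and 922.8 CPM in control endoderm 866.0, 799.0 and 616.2 CPM in CRISPRi endoderm and between 169.5 and 239.7 CPM in the 4 foregut libraries. On average most of the reads in these sums came from DPPA4 and POU5F1 in hESC, from POU5F1 in endoderm and from SOX2 in foregut. The summed level of 5 definitive endoderm markers was 31.2 and 18.4 CPM in hESC, between 1031 and 1433 CPM in the 6 endoderm libraries and between 722.5 and 918.9 CPM in the 4 foregut libraries. The summed level of 8 foregut markers (in foregut most of the reads came from TTR) was at most 77.96 CPM in hESC and endoderm and at least 1712 CPM in every foregut library. In foregut NANOG was at most 0.0725 CPM, while SOX2 was between 142.2 and 223.7 CPM and rose from control endoderm to control foregut (2.84 in log2, adjusted p = 0.000129, edgeR). POU5F1 was at 291.3 and 575.1 CPM in hESC and at 825.9, 715.6 and 651.9 CPM in control endoderm, above both hESC libraries (0.79 in log2, adjusted p = 0.0168, edgeR, with a fold under 2). In control endoderm TTR had no read and the summed level of 4 neural markers, mostly ZIC1, was 16.9, 11.7 and 13.6 CPM, beside 46.2 and 56.1 CPM in hESC.

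LTR5 reads were read in CPM of the gene reads of each library, by subfamily. The authors designed the sgRNA on a sequence of the LTR5B consensus and speak of LTR5B and LTR5_Hs as targeted. They do not name LTR5A. Over the 614 integrants named LTR5_Hs, hESC gave 18.6 and 21.9 CPM, control endoderm 18.9, 19.2 and 17.8 and CRISPRi endoderm gave 10.6, 12.7 and 14.1. Every CRISPRi library of endoderm was below every control, a ratio of means of 1.5 with p = 0.1 in an exact permutation test, the smallest p that 3 against 3 allows. The 424 LTR5B integrants gave 5.03, 5.57 and 5.50 in control and 1.5, 3.36 and 3.02 in CRISPRi endoderm, again without overlap. These values rest on 99, 120 and 90 reads in control and 25, 66 and 35 in CRISPRi. Without the most abundant LTR5B integrant they were closer, 3.10, 3.39 and 2.87 against 1.44, 2.65 and 2.68. The 258 LTR5A integrants went the other way, 39.1, 47.3 and 62.8 against 88.7, 91.6 and 110.4, and the same integrant held most of their reads in all 6 libraries. Over all 1315 integrants, LTR5A included, CRISPRi endoderm was therefore above control. The values were 101.3, 107.8 and 127.9 against 63.7, 72.5 and 86.1, with the same exact permutation p = 0.1. This direction rested on that LTR5A integrant. Without it the totals overlapped, 32.1, 33.2 and 36.8 in CRISPRi against 37.5, 34.5 and 36.2 in control endoderm. The LTR5A reads without it were still apart, 19.5, 17.1 and 19.25 in CRISPRi against 12.9, 9.29 and 12.9 in control. In foregut, LTR5_Hs gave 9.10 and 8.75 in the controls against 4.43 and 10.9 in CRISPRi (exact permutation p = 1, smallest possible 0.333), from 6 to 18 integrants with any read per library, while LTR5B gave 12.4 and 9.29 against 5.59 and 4.28 and LTR5A 54.5 and 57.6 against 59.5 and 62.95. Over all integrants of LTR5 the foregut groups overlapped, 76.0 and 75.6 against 69.5 and 76.2. In foregut the lower LTR5_Hs signal was therefore seen in 1 of 2 CRISPRi libraries, and the lower LTR5B signal in both.

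All 6 measured factors rose between hESC and control endoderm, by 6.54-fold for OTX2 and by 14.3-fold to 459-fold for the others. A gene is called, here and below, when edgeR's quasi-likelihood test gives it a Benjamini-Hochberg adjusted p below 0.05 over all genes and its fold is above 2. Of 20818 genes tested, 5405 (26.0%) were called and 2957 (14.2%) were called higher, against 6 of 6 factors, of which the median log2 fold change was 7.65 beside 0.04 for all genes. The factors are known for this step, so their count describes the cultures. In bulk RNA, a change in the share of cells that express a gene and a change in RNA per cell cannot be told apart.

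MIXL1, a paired-type homeobox gene of the streak, was at 2.33 and 1.36 CPM in hESC and at 979.4, 646.2 and 859.7 CPM in control endoderm. It was the factor with the widest step, which is 8.84 in log2 (SE 0.34, adjusted p = 1.27e-10, edgeR). EOMES, the T-box factor that specifies endoderm, was at 4.11 CPM in both hESC libraries and at 561.0, 594.0 and 642.9 CPM in control endoderm, which is 7.22 in log2 (SE 0.25, adjusted p = 5.62e-11, edgeR). In hESC, EOMES and MIXL1 were low but above the level that 3 reads give, which was 0.13 and 0.123 CPM in those libraries.

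GSC, the organizer homeobox gene, was at 0.389 and 0.288 CPM in hESC and at 99.7, 99.97 and 98.6 CPM in control endoderm. Its 3 control endoderm libraries lay closest together among the 6 factors, and the step was 8.21 in log2 (SE 0.30, adjusted p = 7.74e-11, edgeR). TBXT, also called Brachyury, had 4 reads in the 2 hESC libraries together, 0.0865 and 0.0823 CPM, and 27.3, 22.8 and 21.9 CPM in control endoderm. From so few hESC reads its ratio, 286-fold by summed reads, has a counting interval of 111.4 to 1051, and the fitted step was 8.09 in log2 (SE 0.40, adjusted p = 9.34e-10, edgeR).

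OTX2 differed from the other factors in its starting level. It was at 85.3 and 69.99 CPM in hESC, where it belongs to the epiblast programme, and at 469.1, 538.6 and 481.0 CPM in control endoderm, which is 2.71 in log2 (SE 0.20, adjusted p = 5.32e-08, edgeR). MESP1, the mesoderm factor, was at 0.432 and 0.206 CPM in hESC and at 5.68, 3.09 and 4.81 CPM in control endoderm, which is 3.84 in log2 (SE 0.46, adjusted p = 9.14e-06, edgeR). The hESC libraries held 15 reads of it together, and with 1 library left out the step ran from 3.39 to 4.45.

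**Figure D1:**
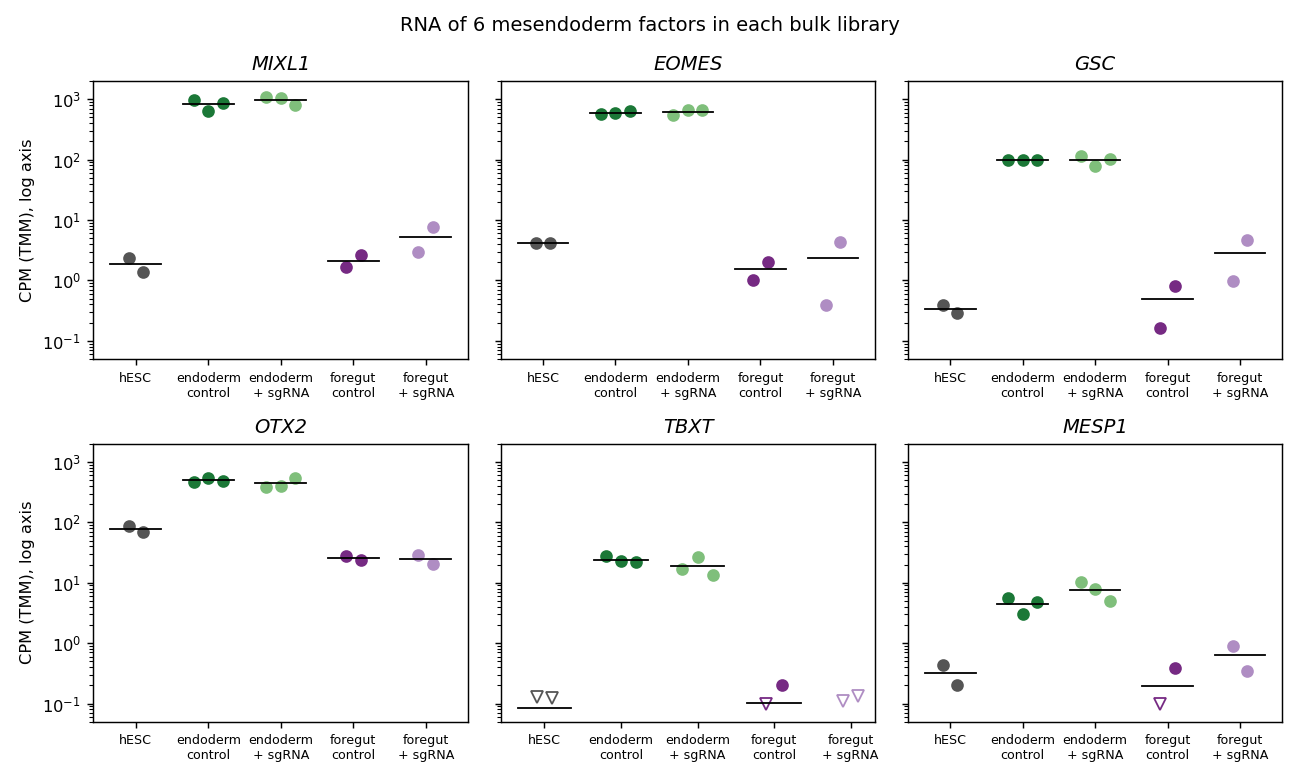
CPM of 6 factors in each of the 12 bulk libraries on a log axis, with 1 point per library and a line at the mean of each group; open triangles stand at the level of 3 reads for libraries below it. All 6 factors are higher in every endoderm library than in every hESC and foregut library, and OTX2 stays above 20 CPM in every library.

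The bulk levels of the 6 factors were compared with each other only after division by the annotated exon length. Per kb of exon, control endoderm had 407.1 ± 82.9 CPM of MIXL1, 163.9 ± 11.3 of EOMES, 146.0 ± 10.9 of OTX2, 87.2 ± 0.652 of GSC, 9.22 ± 1.12 of TBXT and 4.14 ± 1.21 of MESP1 (mean ± SD, n = 3). In that order only EOMES and OTX2 overlapped between libraries, EOMES from 153.4 to 175.8 and OTX2 from 138.1 to 158.5 CPM per kb. In hESC the order was different. OTX2 led with 22.9 ± 3.19 CPM per kb, followed by EOMES with 1.12, MIXL1 with 0.907, GSC with 0.297, MESP1 with 0.292 and TBXT with 0.0324 (n = 2), and the ranges of EOMES and MIXL1, and of GSC and MESP1, overlapped. The mesoderm factors TBXT and MESP1 were thus the lowest of the 6 in endoderm, and the other 4 factors were above them in every library.

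All 6 factors fell again between control endoderm and control foregut. Here 6232 of 21466 genes (29.0%) were called and 3214 (15.0%) were called lower, and the median log2 fold change of the factors was -7.63 beside -0.09 for all genes. The control endoderm libraries are the same as in the comparison with hESC, so that the rise and the fall are not independent. The foregut libraries carry later registration numbers than the others, so the stage and a difference in preparation cannot be told apart.

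EOMES was at 1.01 and 2.05 CPM in control foregut (-8.59 in log2, SE 0.38, adjusted p = 2.40e-06, edgeR) and MIXL1 at 1.66 and 2.62 CPM (-8.59 in log2, SE 0.37, adjusted p = 2.13e-06, edgeR). EOMES retained 0.255% and MIXL1 0.258% of the mean of control endoderm, and no foregut library came near an endoderm library. GSC was at 0.162 and 0.821 CPM (-7.59 in log2, SE 0.54, adjusted p = 1.91e-05, edgeR). TBXT had no read in the first control and 8 reads in the other, 0.205 CPM, and its ratio of endoderm to foregut by summed reads was 210.3 with a counting interval of 106.4 to 488.1 (-7.68 in log2, SE 0.68, adjusted p = 6.01e-05, edgeR). MESP1 had no read in the first control and 0.385 CPM in the other (-4.45 in log2, SE 0.95, adjusted p = 0.00662, edgeR). With so few foregut reads the size of the fall depends on the library, from -12.03 to -6.85 in log2 for TBXT, from -9.14 to -6.93 for GSC and from -9.63 to -3.56 for MESP1 when 1 library is left out.

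OTX2 was again apart. Control foregut had 27.9 and 23.8 CPM, which is 5.21% of the endoderm mean and below both hESC libraries (-4.26 in log2, SE 0.22, adjusted p = 5.30e-06, edgeR). Per kb of exon it had 7.61 ± 0.851 CPM in control foregut (n = 2), and MIXL1, in the next place, had 1.05 ± 0.334.

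**Figure D2:**
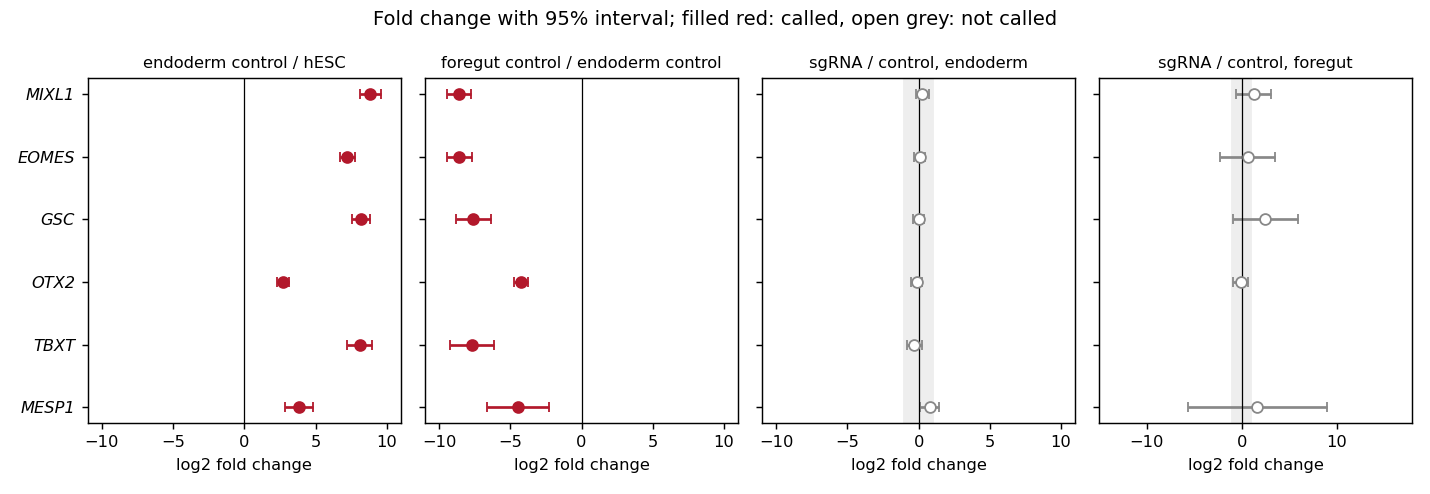
Log2 fold change of each factor with its 95% interval in 4 comparisons of the bulk libraries; filled red points passed the call, open grey points did not, and the grey band in the sgRNA panels marks fold changes under 2. The stage comparisons have all 6 factors on the same side, and both sgRNA comparisons have none called; TBXT is not drawn for the sgRNA in foregut because its 4 foregut libraries together held 8 reads.

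Cells with the sgRNA against LTR5 were compared with their controls at each stage. In endoderm, 7 of 20407 genes (0.0343%) were called by edgeR and none of the 6 factors was among them. At an unadjusted p under 0.05 and a fold over 2, 550 genes passed and again 0 factors, and DESeq2 and limma voom called 0 factors of 47 and 1 genes. The number of genes called is not stable, from 1 to 9 with 1 library left out and 186 with no filter on low counts, with 0 factors each time. EOMES was at 542.3, 656.0 and 668.5 CPM with the sgRNA, so that the range of the controls lay inside that of CRISPRi. Its log2 fold change was 0.08 with a 95% interval from -0.30 to 0.46. MIXL1 was at 1099, 1042 and 798.5 CPM with the sgRNA, a log2 fold change of 0.26 (95% interval -0.17 to 0.69). GSC was at 115.4, 79.4 and 101.8 CPM with the sgRNA, which spread on both sides of the tightly placed controls (log2 fold change 0.01, 95% interval -0.38 to 0.41).

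OTX2 was at 391.1, 402.0 and 534.6 CPM with the sgRNA (log2 fold change -0.14, 95% interval -0.54 to 0.26). TBXT was at 17.0, 27.0 and 13.5 CPM (log2 fold change -0.30, 95% interval -0.83 to 0.24). For these 5 factors the interval lay within a fold change of 2 in either direction, and all their groups overlapped. MESP1 was at 10.1, 7.98 and 5.04 CPM with the sgRNA and at 5.68, 3.09 and 4.81 CPM without it. The groups overlapped, the log2 fold change was 0.79 (95% interval 0.12 to 1.46) with an adjusted p of 0.816 (edgeR), and a fold change of 2 lay inside the interval.

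Other genes of the nascent mesoderm were read beside MESP1. By edgeR 0 of the 11 were called, beside 7 of 20407 genes, and 4 passed an unadjusted p under 0.05 with a fold over 2, as did 550 of all genes. Their median log2 fold change was 0.72 beside -0.02 for all genes, and 10 of 11 were above 0. HAND1, a factor of lateral and extraembryonic mesoderm, was at 52.3, 36.2 and 47.4 CPM with the sgRNA and at 13.7, 11.7 and 25.1 CPM without it. FOXF1, a lateral mesoderm factor, was at 5.41, 2.53 and 2.94 CPM with it and at 1.25, 0.599 and 1.06 CPM without it. HAND1 and FOXF1 did not overlap between the groups, and their adjusted p was 0.199 and 0.214 (edgeR). How many of all genes did not overlap was not counted. For 3 against 3 libraries the smallest p of an exact permutation test, which full separation gives, is 0.1, for genes and for sums. The summed level of 7 mesoderm markers, HAND1 and FOXF1 among them and with most of the reads from PDGFRA and KDR, did overlap, 369.6, 138.5 and 208.2 CPM in the controls and 367.4, 251.6 and 177.6 CPM with the sgRNA. The summed level of 5 trophoblast or amnion markers was 57.3, 44.4 and 55.3 CPM with the sgRNA and 17.2, 18.2 and 32.6 CPM without it. These sums did not overlap and were mostly HAND1. All 5 markers had a log2 fold change above 0, 0 were called by edgeR, and the 4 other than HAND1 overlapped between the groups. The 6 hESC markers went the other way. Their sums, given above, did not overlap between the groups, and 0 of 6 had a log2 fold change above 0, with a median of -0.52. By edgeR 0 of the 6 were called and 1 passed the unadjusted p and fold, NANOG, at 5.80, 18.1 and 13.6 CPM with the sgRNA and at 27.4, 30.4 and 21.6 CPM without it (-1.05 in log2, adjusted p = 0.58, edgeR). Whether the share of mesoderm cells or of undifferentiated cells differed was not tested.

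In foregut, 33 of 20044 genes (0.165%) were called for the sgRNA and none of the 6 factors by edgeR, DESeq2 (31 genes) or limma voom (11 genes); at an unadjusted p under 0.05 and a fold over 2, 0 factors of 504 genes passed. With 1 library left out, 16 to 527 genes were called, and 204 with all 12 libraries in 1 fit and 1 with edgeR's own filter, with 0 factors each time. EOMES was at 0.399 and 4.37 CPM with the sgRNA, MIXL1 at 2.90 and 7.56 CPM and GSC at 0.979 and 4.63 CPM. The higher value of each came from CRISPRi replicate 2, the library that also had the most NODAL, 4.02 CPM, of the 4. Each of these values was far below the lowest endoderm library. The log2 fold changes were 0.63 for EOMES (95% interval -2.25 to 3.52), 1.28 for MIXL1 (-0.55 to 3.11) and 2.49 for GSC (-0.94 to 5.93). With 1 library left out they ran from -1.94 to 1.51 for EOMES, from 0.43 to 1.82 for MIXL1 and from 0.98 to 4.07 for GSC.

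OTX2 was at 29.1 and 20.1 CPM in foregut with the sgRNA, on both sides of the controls, and its log2 fold change of -0.08 had the narrowest interval of the 6 in foregut, -0.88 to 0.72. TBXT had no read in either CRISPRi library and MESP1 was at 0.907 and 0.3495 CPM, above or inside the range of its controls (log2 fold change 1.68, 95% interval -5.69 to 9.04). With 1 library left out the MESP1 value ran from 0.70 to 7.10. At this depth a difference of TBXT between the foregut groups was not detectable.

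Of 8 foregut markers 2 were called between the same groups, and of 5 trophoblast or amnion markers 1. PDX1 was at 27.0 and 24.7 CPM in the controls and at 2.79 and 7.73 CPM with the sgRNA, and AFP at 187.0 and 4.82 CPM and at 0.0363 and 0 CPM. CDX2, from the trophoblast or amnion markers, was at 24.5 and 12.3 CPM and at 1.67 and 3.76 CPM. All 3 were called lower by edgeR, as were 23 of 20044 genes, with no overlap between the groups. With edgeR's own filter 1 gene was called in all, so at most 1 of the 3 kept its call. The share of all genes without overlap between these groups was not counted. For 2 against 2 libraries the smallest p of an exact permutation test is 0.333. TTR, at 1540 and 1954 CPM in the controls and at 1989 and 1495 CPM with the sgRNA, had a log2 fold change of -0.01. The trophoblast or amnion sums, with KRT7 the largest part, overlapped, 93.5 and 121.3 CPM and 108.0 and 109.3 CPM. In foregut TFAP2A of that list was at most 1.79 CPM and HAND1 at most 0.949 CPM, while GATA3 was between 8.39 and 29.45 CPM. The list names genes and assigns no cell type to these cultures. Whether the share of cell types differed was not tested.

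The difference between the sgRNA effects in foregut and in endoderm was tested as an interaction, in which 44 of 22708 genes (0.194%) were called by edgeR and 0 of 6 factors. GSC and TBXT passed an unadjusted p under 0.05 and a fold over 2, as 1682 genes did, and DESeq2 and limma voom called 0 factors. For GSC the interaction was 2.41 on the log2 scale (95% interval 0.80 to 4.01, adjusted p = 0.401, edgeR), and with no filter on low counts it passed the call (adjusted p = 0.0213, edgeR). With 1 library left out it ran from 0.89 to 3.99, and it rested most on the foregut libraries, of which a group then holds 1. The TBXT value rests on 8 foregut reads.

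Genes of the signals that act upstream of the factors were read at the same stage steps. Of 14 tested genes of Nodal and Activin signalling, 7 rose in endoderm and 7 were not called, and in foregut 8 fell and 6 were not called. For this and the next lists, 14.2% of all genes were called higher in endoderm, and 15.0% lower in foregut. NODAL, the ligand, was at 1.95 and 2.26 CPM in hESC, 156.5, 214.7 and 176.2 CPM in control endoderm and 1.62 and 1.05 CPM in control foregut. CER1, a secreted Nodal and WNT antagonist of the anterior endoderm, was at 0.303 and 0.0823 CPM in hESC, 3962, 3553 and 4016 CPM in endoderm and 0.974 and 0.795 CPM in foregut. FOXH1, the DNA-binding partner of SMAD2 and SMAD3 at Nodal targets, was at 80.6 and 66.99 CPM already in hESC and rose to 205.1, 209.0 and 205.1 CPM.

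Of 12 genes of WNT and FGF signals in the streak, 10 rose in endoderm and 10 fell in foregut. FGF17 was at 1135, 1055 and 1106 CPM in control endoderm and at or below 0.259 CPM in hESC and control foregut, and SP5, a direct WNT target, was at 48.3, 57.5 and 52.6 CPM in control endoderm and at most 0.390 CPM in those other groups. Of 8 definitive endoderm genes, 7 rose in endoderm, and in foregut 2 rose and 3 fell. SOX17 fell to 23.5 and 24.7 CPM in foregut from 283.9, 207.3 and 230.5 CPM, while FOXA1 rose to 231.0 and 183.8 CPM from 5.13 to 7.73 CPM. Of 11 nascent mesoderm genes, 9 rose in endoderm and 8 fell in foregut. With the sgRNA edgeR called 0 genes of these lists at either stage. At an unadjusted p under 0.05 and a fold over 2 there were 4 nascent mesoderm genes in endoderm, where 550 of 20407 genes passed. In foregut there were 2 of 13 Nodal, 2 of 8 definitive endoderm and 1 of 8 nascent mesoderm genes, where 504 of 20044 genes passed.

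Of 14 tested paralogs and LHX1 cofactors, 3 rose and 2 fell in endoderm, where 2957 and 2448 of 20818 genes did. Their median log2 fold change was 0.65 and 11 of 14 were above 0. In foregut 2 rose and 5 fell, where 3018 and 3214 of 21466 genes did. TBR1, the closest relative of EOMES, had no read in hESC and 7.53, 5.57 and 7.69 CPM in control endoderm. The paralogs LHX5 and TBX5 fell, LHX5 from 3.11 and 4.69 CPM to at most 0.798 CPM. GSC2 was at 0.0865 CPM or less in all 12 libraries. LDB1 and SSBP3, cofactors that LHX1 binds, were present in every group, SSBP3 at 107.4 and 131.0 CPM in hESC and at 404.3 and 309.4 CPM in control foregut.

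Among 46 named genes above 10 CPM, the most like the pattern of EOMES over the 12 libraries was NODAL (Pearson r = 0.995 of log2(CPM + 1)), then CER1 (0.990) and SP5 (0.987). For TBXT they were SP5 (0.995), FGF17 (0.991) and CER1 (0.990), and for MIXL1 they were CER1 (0.996), GSC (0.995) and FGF17 (0.992). GSC was most like MIXL1 (0.995), CER1 (0.988) and NODAL (0.986). OTX2 was most like LEFTY1 (0.989), AXIN2 (0.983) and EOMES (0.964), and MESP1, among 47 genes, was most like FGF8 (0.963), MIXL1 (0.961) and HAND1 (0.958). The libraries share their stages, so each r mostly describes the step between endoderm and the rest. Of 10587 genes, 3 were more like OTX2 than LEFTY1 was, and none was more like EOMES than NODAL.

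Near the factors no LTR5 integrant lay within 100 kb, on the coordinates of the TE tables (hg19) and GENCODE genes lifted to that build. EOMES is at chr3:27757440-27764202 (minus strand), TBXT at chr6:166571144-166582188 (minus), MIXL1 at chr1:226411319-226414761 (plus), GSC at chr14:95234560-95236450 (minus), LHX1 at chr17:35294084-35301912 (plus), OTX2 at chr14:57266623-57283411 (minus) and MESP1 at chr15:90293106-90294480 (minus). The closest integrant was an LTR5A at 141.1 kb for GSC, an LTR5B at 183.7 kb for EOMES and an LTR5A at 256.8 kb for MIXL1. It was an LTR5A at 595.3 kb for MESP1, and LTR5_Hs at 656.4 kb for TBXT, 825.7 kb for LHX1 and 1774 kb for OTX2. None of these 7 integrants had a read in any library. The median distance of the factors was 595.3 kb, beside 727.1 kb for 19475 protein-coding genes, of which 14.3% had an integrant within 100 kb.

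Whether strand was used in counting is not stated, so reads of a factor and of an overlapping antisense gene cannot be told apart. LINC02084, 1944 bp from EOMES on the opposite strand, rose in endoderm from 0.0865 and 0.247 CPM to 1.05, 1.89 and 2.19 CPM. LNCDAT, which overlaps TBXT on the opposite strand, and an unnamed lncRNA 158 bp from GSC on the opposite strand were not in the bulk tables. OTX2-AS1, which overlaps OTX2, was at most 0.168 CPM, and LIN9, 4089 bp from MIXL1, was at 20.3 and 19.7 CPM in hESC and at 15.1, 11.8 and 12.5 CPM in control endoderm, with no call between these groups.

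Chromatin was read in the gastruloids, whose 205374 accessibility peaks are given on GRCh38. RefSeq promoter windows, 250 bases before to 50 bases after a start, were matched for 5 of the 7 factors, with 7 starts, and 5 of the 7 windows touched a peak, beside 58.4% of all 35116 windows. Every one of the 5 factors had a start in a peak, EOMES and GSC included. The upstream starts of TBXT and OTX2 were outside peaks and their downstream starts inside. Within 50 kb of the gene there were between 11 and 15 peaks for each of the 7 factors, where the median of 20037 protein-coding genes was 13.

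The 250 bases upstream of MIXL1 and GSC are shown because these are the factors with a single listed start whose window lies wholly in a peak. They were taken from RefSeq on GRCh38.p14, chr1:226223414-226223663 (plus strand) for MIXL1 and chr14:94770114-94770363 (minus strand) for GSC, and each reads 5′ to 3′ along its gene. Searched on both strands were AGGTGT (T-box core), TAATCC (bound by GSC and OTX2), CTTTGAT (LEF/TCF) and AATCCACA (FOXH1). Capitals mark the matches.
MIXL1: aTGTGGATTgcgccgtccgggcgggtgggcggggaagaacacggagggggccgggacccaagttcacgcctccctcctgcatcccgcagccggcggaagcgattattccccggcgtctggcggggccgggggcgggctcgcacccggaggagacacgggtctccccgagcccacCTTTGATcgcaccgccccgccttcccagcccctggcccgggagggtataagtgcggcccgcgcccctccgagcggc
GSC: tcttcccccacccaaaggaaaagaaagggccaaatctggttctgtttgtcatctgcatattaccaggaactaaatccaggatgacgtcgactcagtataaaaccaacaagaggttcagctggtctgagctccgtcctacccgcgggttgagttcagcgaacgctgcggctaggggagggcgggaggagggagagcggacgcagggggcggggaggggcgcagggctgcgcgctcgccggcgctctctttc
The MIXL1 stretch holds the FOXH1 letters on the opposite strand, their first base 249 bases before the start, and the LEF/TCF letters 76 bases before it. Of all promoter windows, 0.817% hold AATCCACA, 2.62% CTTTGAT, 6.36% TAATCC and 11.4% AGGTGT on either strand. The GSC stretch and the other windows of the factors hold none of the 4 motifs, and a match of letters is a description of the sequence alone.

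In gastruloid nuclei TBXT was the most often detected factor. Of 3646 nuclei in the table, 3422 passed the filters (median 16302 unique molecular identifiers, UMIs, which count RNA molecules), and 3197 of them held at least 5000 UMIs and were thinned to that number. After thinning, 651 nuclei (20.4%, exact 95% interval 19.0 to 21.8%) had a UMI of TBXT, 243 (7.60%, 6.71 to 8.57%) of MIXL1, 84 (2.63%, 2.101 to 3.24%) of MESP1, 75 (2.35%, 1.85 to 2.93%) of LHX1 and 25 (0.782%, 0.507 to 1.15%) of OTX2. The intervals cover counting error only, and there was 1 preparation, so no test between conditions is possible. Without thinning the shares were 37.6% for TBXT, 17.7% for MIXL1, 6.98% for MESP1, 5.58% for LHX1 and 2.07% for OTX2. The thinning is a random draw, and the share expected at that depth was 19.3% for TBXT, 7.28% for MIXL1, 2.79% for MESP1, 2.33% for LHX1 and 0.699% for OTX2. Over all nuclei kept, TBXT had 65.7 CPM by UMIs, MIXL1 20, MESP1 6.72, LHX1 5.77 and OTX2 1.27.

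The gastruloid order therefore had TBXT ahead of MIXL1, and MIXL1 ahead of MESP1 and LHX1, whose intervals overlap. OTX2 was last. This order is one of detection, with no division by gene length.

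Nuclei were then set apart by UMIs of marker genes, with no cell type assigned. PAX3 marks paraxial mesoderm, in which TBXT is switched off, and nuclei with a UMI of PAX3 were used for comparison. They numbered 1644 of the 3197, with a median depth of 15675 UMIs before thinning. Of them 11.9% had a UMI of TBXT, 4.26% of MIXL1, 2.19% of MESP1, 0.973% of LHX1 and 0.547% of OTX2. These nuclei are part of all nuclei, and whether such UMIs come from free RNA was not tested, so a background level was not obtained for any factor.

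Nuclei with a UMI of SHH, NOTO or FOXA2, genes of the node and notochord, numbered 683, with a median depth of 19494 UMIs before thinning. Of these, 330 (48.3%, 44.5 to 52.1%) had a UMI of TBXT, compared with 12.8% of the 2514 nuclei without those markers. LHX1 was found in 7.91% of them and in 0.835% of the others, and MIXL1 in 15.5% and 5.45%. OTX2 was found in 1.90% and 0.477%, from 13 and 12 nuclei. These 4 factors had higher shares with the axial markers than in PAX3 nuclei, with intervals that do not overlap for TBXT, MIXL1 and LHX1.

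MESP1 was found in 1.46% (0.704 to 2.68%) of the axial nuclei, an interval that overlaps those of the nuclei without these markers (2.32 to 3.68%) and of the PAX3 nuclei (1.54 to 3.02%). In the 455 nuclei with a UMI of TBX6 or MSGN1, genes of the presomitic mesoderm, it was found in 7.47% (5.23 to 10.3%), compared with 1.82% of nuclei without them. Nuclei with a UMI of RIPPLY1, RIPPLY2 or PCDH8, which mark segmenting mesoderm, had MESP1 in 3.98%. TBXT was found in 19.1% of the TBX6 or MSGN1 nuclei and in 15.9% of the RIPPLY1, RIPPLY2 or PCDH8 nuclei. The ratio of TBXT to MESP1 UMIs thus differed between sets, 184.8 to 3.81 CPM by UMIs in axial nuclei and 51.9 to 20.2 CPM in TBX6 or MSGN1 nuclei. MIXL1 was in 11.9% of TBX6 or MSGN1 nuclei, so that it spanned both sets.

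**Figure D3:**
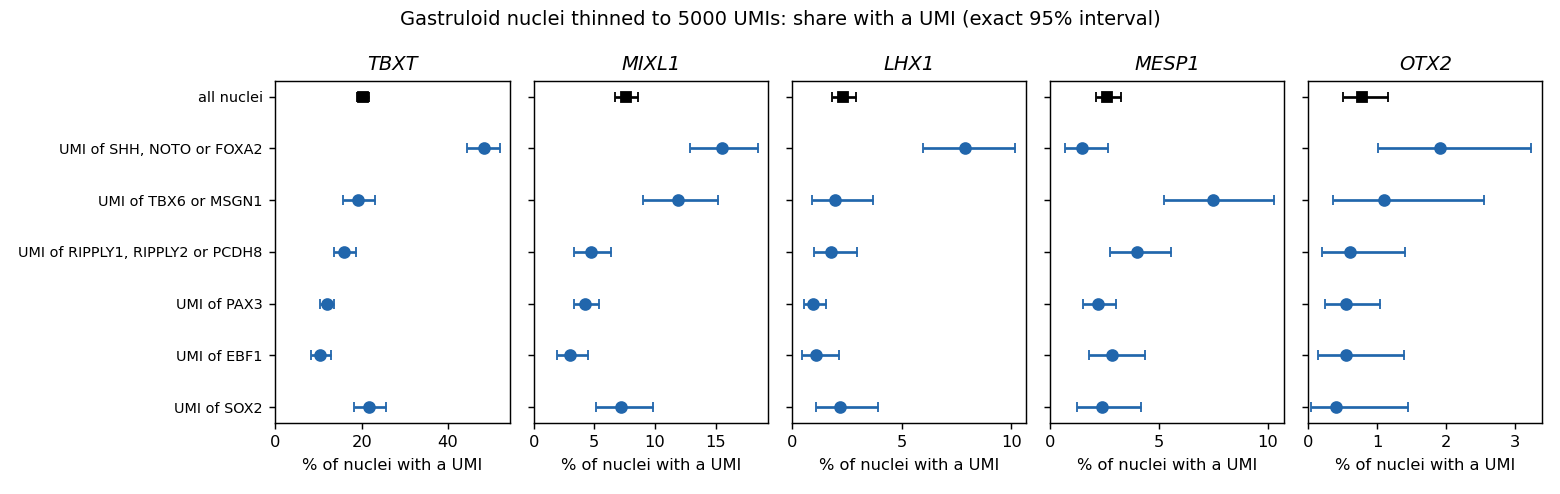
Share of thinned gastruloid nuclei with a UMI of each of 5 factors, over all nuclei (black squares) and in sets of nuclei with a UMI of the named markers (blue circles), with exact 95% intervals; the horizontal scale differs between factors and the sets overlap. TBXT and LHX1 are highest with SHH, NOTO or FOXA2, at 48.3% and 7.91%, and MESP1 is highest with TBX6 or MSGN1, at 7.47%.

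UMIs of several factors were found in the same barcodes. Doublets were not identified, so RNA of 1 nucleus and of a pair of nuclei under the same barcode cannot be told apart. Of the 3197 nuclei, 2306 had no UMI of the 5 factors, 717 had a UMI of 1 factor, 161 of 2 and 13 of 3. Among nuclei with a UMI of TBXT, 16.1% had MIXL1 and 7.68% had LHX1, compared with 5.42% and 0.982% of nuclei without TBXT. Seen from LHX1, 50 of its 75 nuclei (66.7%, 54.8 to 77.1%) also had a UMI of TBXT. MESP1 and TBXT were together in 10 nuclei, 11.9% of the MESP1 nuclei, with an interval (5.86 to 20.8%) that overlaps that of nuclei without MESP1 (20.6%, 19.2 to 22.1%). LHX1 was in 0 of the 84 MESP1 nuclei, an interval up to 4.30% that includes the 2.41% of nuclei without MESP1. Median depth before thinning was 18142 UMIs with TBXT and 16622 without, and a single UMI was all that 442 of the 651 TBXT nuclei held.

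**Figure D4:**
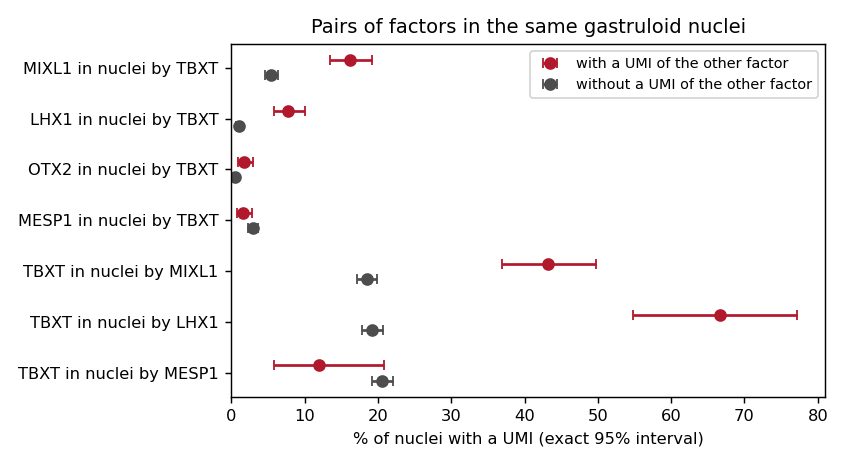
Share of thinned gastruloid nuclei with a UMI of one factor among nuclei with (red) and without (grey) a UMI of another, with exact 95% intervals. LHX1 and MIXL1 are more frequent with TBXT, and MESP1 nuclei have TBXT in 11.9%.

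The companions of these factors were present in part. A UMI of NODAL was found in 3.94% of thinned nuclei, of FGF17 in 18.8%, of SP5 in 22.1% and of CHRD, an organizer antagonist of BMP signals, in 17.3%. CER1, at 3553 CPM or more in every bulk endoderm library, was in 1.16% of nuclei, and SOX17 was not analysed in the nuclei. LHX1 cofactor SSBP3 was found in 42.5% and LDB1 in 6.13% of nuclei.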

How the data were processed

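Gene counts of the bulk libraries were made by the authors, who aligned reads with HISAT2 to hg19 and counted unique alignments over genes, and the counts were used as deposited. Nuclei were processed by the authors with Cell Ranger on hg38, and the deposited UMI counts were used. The labels give no versions. Genes with at least 3 reads in 1 compared library were tested with edgeR 4.0.16 (quasi-likelihood, TMM, R 4.3.3) and adjusted over all tested genes by Benjamini-Hochberg. DESeq2 1.42.0 and limma 3.58.1 (voom) were alternatives. CPM are TMM-scaled over all 12 libraries. SE is the absolute log2 fold change over the root of F, and intervals use the t distribution. Nuclei had at least 1000 UMIs, 200 genes and at most 25% mitochondrial UMIs, and were thinned to 5000 UMIs in a random draw with a set seed. Symbols, exon lengths and hg19 positions came from GENCODE 44. Members and lists were chosen with earlier results of these data known.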

Additional observations from a re-analysis of the deposited data

Results flagged for a closer look

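The difference between the sgRNA effects in foregut and in endoderm passed the edgeR call for SP5 (-5.80 in log2) and for HAND1 (-8.36 in log2), genes related to the 6 factors. Both rest on foregut values close to no reads. SP5 was at 0.390 and 0.282 CPM in control foregut and had no read in CRISPRi foregut, and HAND1 was at 0.325 and 0.949 CPM in control foregut and had no read in CRISPRi foregut.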

How the results depend on the processing

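There were 2 or 3 libraries per bulk group and 1 gastruloid preparation, the hESC labels name no dCAS9-KRAB, and mitochondrial reads were 8.30% to 14.4% of gene reads in endoderm, 16.9% and 25.5% in hESC and 17.6% to 34.7% in foregut. This share separates endoderm from the other stages as the factors do, and its part in the steps was not tested beyond leaving those genes out. The comparisons share control endoderm. All 6 factors were called at both stage steps under every setting and 0 for the sgRNA at either stage. In the interaction 2 were called at unadjusted p and 1 with no filter on low counts, and leaving out a library gave 0 to 1, the 1 (GSC) with a single CRISPRi foregut library left, so that the spread came from the other groups alone. GSC with the sgRNA in endoderm turned to -0.007 (limma voom), -0.001 (all 12 libraries in 1 fit), -0.022 (library sizes alone), -0.003 (replicate block) and between -0.097 and 0.167 without a library. EOMES in foregut turned to -0.323 (limma voom), -0.097 (replicate block), -0.096 (replicate block with crossed numbers) and between -1.936 and 1.511 without a library, and OTX2 lay between -0.364 and 0.163. The interaction of EOMES was -0.356 with limma voom. Without a library it lay between -2.037 and 1.439 for EOMES, -4.874 and 0.292 for TBXT, -0.201 and 0.283 for OTX2, and -0.056 and 5.943 for MESP1. With the replicate block, 6, 0, 0, 6 and 0 factors were called in the 5 comparisons. Over the genes compared, equal numbers did not mark matching libraries between control and CRISPRi. There r was -0.110, -0.083 and -0.055 in endoderm (8580 genes) and -0.392 in foregut (8570 genes). The mesoderm marker sum was still highest in replicate 1 of both endoderm groups, 369.6 CPM in control and 367.4 CPM in CRISPRi. HAND1 was highest in control replicate 3 and CRISPRi replicate 1. Between control endoderm and foregut r was 0.237 and 0.195 (8947 genes). Between hESC and control endoderm it was 0.030 and 0.071 (8770 genes). With crossed numbers in foregut 74 genes and 0 factors were called. Shares of nuclei at 2000 UMIs, at 10000 UMIs and without thinning were 10.16, 29.92 and 37.58% for TBXT, 3.536, 12.23 and 17.74% for MIXL1, 0.929, 3.881 and 5.582% for LHX1, 0.3896, 1.318 and 2.075% for OTX2, and 1.349, 4.357 and 6.984% for MESP1. TBXT was 18.96% with no filter besides depth, 18.45% with another seed and 19.34% without a draw.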
